A study of Mus musculus with 24 samples.

Results

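The enzymes that write, maintain and remove DNA methylation, and the enzymes that write the H3K27 methyl mark of Polycomb, were followed in the nerve roots of the young mouse. The 9 genes were Dnmt1, Dnmt3a, Dnmt3b, Uhrf1, Tet1, Tet2, Tet3, Ezh1 and Ezh2, taken by name from the 23855 gene names with a tested probe. Each gene was read through its brightest probe, that is the one with the highest mean over 24 arrays, and its other probes were used as a check. Dnmt1 had no other probe. RNA came from C57BL/6 mice, from the efferent nerve fibres of the L4–L6 ventral roots (EN) and the afferent nerve fibres of the L4–L6 dorsal roots (AN), at birth (P0) and at ages of 1, 3 and 5 weeks, written here as 1 W, 3 W and 5 W. The 8 groups carried no transgene or treatment, each held 3 one-colour arrays, and the samples were numbered 1 to 3 within a group. The study used 9 animals per age and describes 3 independent experiments per group, with the fibres collected in 1 tube per group, so that arrays of a group may share animals and the p values measure only the spread between these arrays. A root also holds Schwann cells, fibroblasts, blood vessels and blood. Fewer cells of a type and less RNA per cell cannot be told apart in such bulk samples.

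DNA methylation at CpG sites is set by the de novo methyltransferases Dnmt3a and Dnmt3b. It is copied to the new strand after replication by Dnmt1, which Uhrf1 brings to hemimethylated DNA, and the Tet dioxygenases oxidize 5-methylcytosine towards its removal. Polycomb repressive complex 2 (PRC2) methylates histone H3 at lysine 27 through either of its catalytic subunits, Ezh2, which is typical of dividing cells, or Ezh1, which is typical of resting cells, and PRC1 subunits of the Cbx family read that mark. In peripheral nerve, Schwann cells stop dividing and myelinate in the weeks after birth.

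Stretches near a start site are shown for 4 of the genes. Those of Dnmt1, Uhrf1 and Ezh2 were picked because they held a motif of the E2F factors, which act on genes of DNA replication. That of Ezh1, which held none, is shown as the paralogue of Ezh2. Whether the motif bears on the levels of these genes was not tested. RefSeq windows of 300 bases (250 before and 50 after a start site, GRCm38.p6) were given for 9 of the 9 genes, 14 windows in all. The letters TTTCCCGC, TTTGGCGC, TTTCGCGC and TTTGCCGC were searched on both strands, with no overlap between matches in the windows below, and capitals mark a match. The stretches run 5′ to 3′ along the gene and stop at most 30 bases after the start.
Dnmt1 (chr9:20952754-20952873, minus strand, bases -250 to -131 from the start): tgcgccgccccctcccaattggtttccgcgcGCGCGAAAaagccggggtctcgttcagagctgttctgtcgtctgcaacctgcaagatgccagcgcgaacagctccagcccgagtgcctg
Uhrf1 (chr17:56304063-56304182, plus strand, bases -250 to -131): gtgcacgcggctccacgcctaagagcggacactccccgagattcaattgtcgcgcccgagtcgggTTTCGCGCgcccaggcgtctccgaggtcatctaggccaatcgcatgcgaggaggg
Ezh2 (chr6:47595001-47595120, minus strand, bases -90 to 30): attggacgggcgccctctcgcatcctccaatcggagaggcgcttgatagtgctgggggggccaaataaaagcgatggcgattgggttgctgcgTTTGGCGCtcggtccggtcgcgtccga
Ezh1 (chr11:101226434-101226553, minus strand, bases -90 to 30): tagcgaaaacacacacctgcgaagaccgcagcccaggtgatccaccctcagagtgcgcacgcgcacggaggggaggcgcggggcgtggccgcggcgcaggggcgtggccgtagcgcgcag
The match began at base -219 of Dnmt1, on the opposite strand, at base -185 of Uhrf1 and at base 4 of Ezh2, and the Dnmt1 window held a further match at base 34. Bases are counted from the start of the window used. The Dnmt1 and Uhrf1 stretches lie downstream of other listed starts of these genes, so that they may be transcribed from those starts. A match was present in 3 of these 14 windows, 1 for each of 3 genes, against 2.26% of the 32851 windows of all genes. Windows of Dnmt3a, Dnmt3b, Tet1, Tet2, Tet3 and Ezh1, and 2 further windows of Dnmt1 and 1 of Uhrf1, held none of these letters. CpG, the dinucleotide that the DNA methylation enzymes act on, was counted in the same windows. The 4 windows the stretches come from held 33, 33, 31 and 23, and the 14 windows ran from 2 (a further window of Dnmt1) to 57 (Tet2), against a median of 7 over all windows. Of all windows, 11.7% held 30 or more. Each motif searched contains CG, and no share of matches was taken among windows alike in CpG.

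The 9 brightest probes were well above background on 24 of 24 arrays. Their genomic positions (mm9) are chr9:20711973-20712341 for Dnmt1, chr12:3914320-3914379 for Dnmt3a, chr2:153513402-153513461 for Dnmt3b, chr17:56462770-56462829 for Uhrf1, chr10:62274448-62274507 for Tet1, chr3:133126751-133126810 for Tet2, chr6:83319720-83319779 for Tet3, chr11:101052430-101052489 for Ezh1 and chr6:47480307-47480366 for Ezh2. The Dnmt1 probe spans 369 genomic bases and so crosses a splice junction, and the other 8 lie in one stretch. No annotation of mm9 was used here, so the exon or UTR under each probe is not stated. Values are the deposited normalized log2 levels. A gene is said to have passed, and to have risen or fallen, where its adjusted p was below 0.05 over the 36398 tested probes (limma, Benjamini-Hochberg).

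Median spot signals were 45.4 to 191 per array, beside local backgrounds of 23 to 46, and 55.1% to 71.7% of the gene spots of an array were well above background. Schwann cell markers (8 of 8) were above background on every array, while of 4 motor neuron markers 2 were and Mnx1 was above background on none. Some libraries stood apart from their group. Array 3 of 3 W AN had a mean level of 13.70 over 8 sensory neuron markers against 9.83 and 9.4 in arrays 1 and 2 of that group, and it received the lowest array weight, 0.216. Array 3 of 5 W AN was low in the same markers (7.95 against 10.98 and 9.87). The mean of 4 skeletal muscle markers was high in array 1 of 5 W AN (13.56 against 9.55 and 8.90). It was also high in arrays 1 and 3 of 3 W AN (13.38 and 13.94 against 10.71 in array 2). Arrays 2 and 3 of 5 W AN and array 3 of 5 W EN had weights of 0.353, 0.310 and 0.334. Calls lost without one of these arrays are given with each gene. The arrays lay on 4 slides. All 3 W arrays were on 1 slide with array 3 of each 5 W group, so that no slide held 3 W together with P0 or with 1 W. Age is compared with P0 on a common slide only at 1 W and 5 W. A fit with the slide as a block ties 3 W to P0 and 1 W only through array 3 of each 5 W group.

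**Figure D1:**
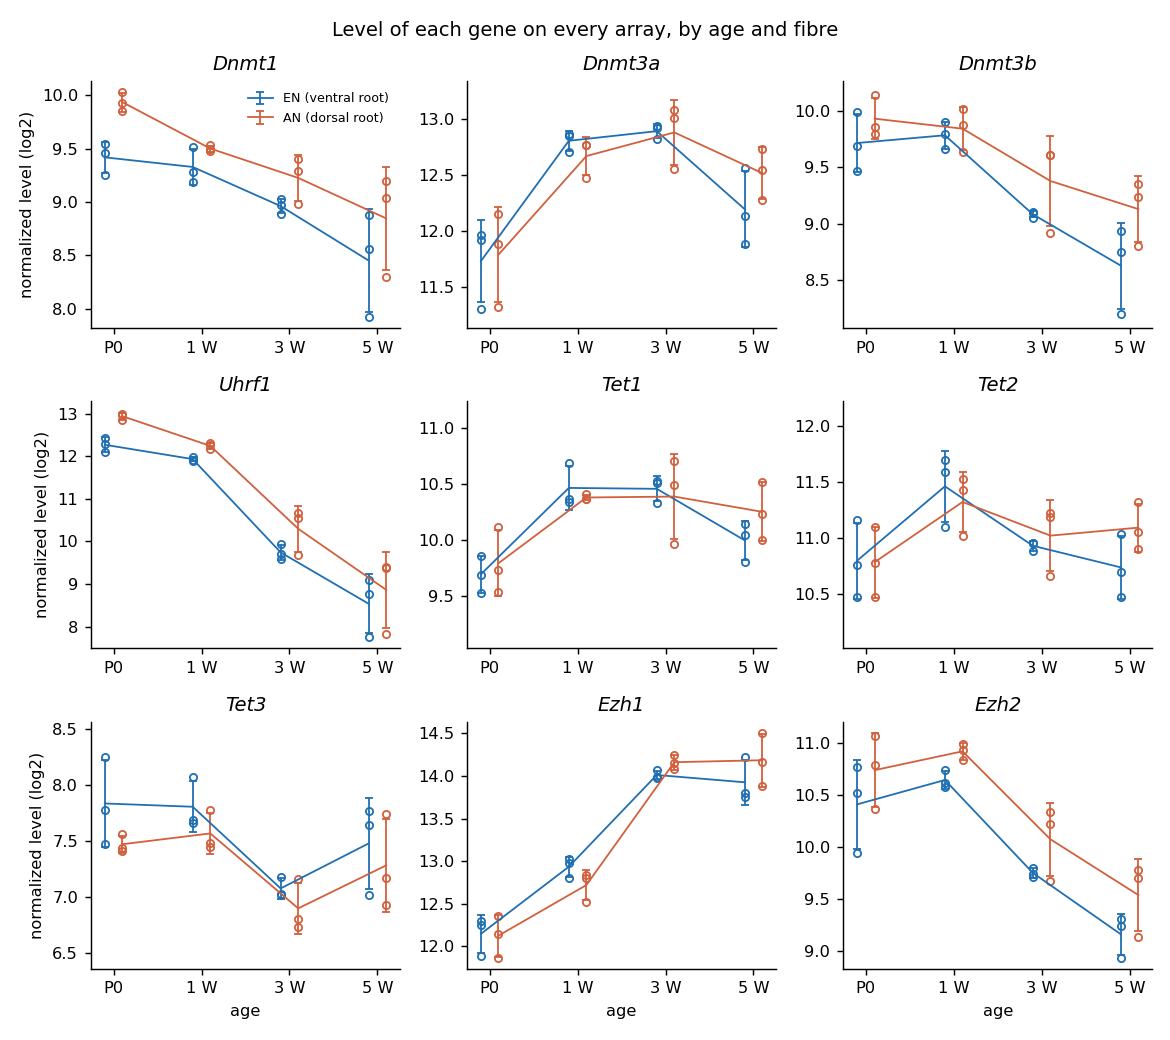
Normalized log2 level (y) of each of the 9 genes on every array (open circles) by age (x), in EN (blue) and AN (orange), with lines through the group means and bars of 1 SD (n = 3). Uhrf1, Dnmt1, Dnmt3b and Ezh2 end below their P0 arrays in both fibres, Ezh1 ends above them, and Dnmt3a is highest at 3 W.

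Of all 9 genes, Uhrf1, the cofactor that recruits Dnmt1 to newly copied DNA, changed by the most. Its level in EN was 12.43, 12.28 and 12.09 on the 3 arrays at P0, 11.91, 11.90 and 11.99 at 1 W, 9.59, 9.94 and 9.70 at 3 W and 8.77, 7.76 and 9.09 at 5 W. The AN arrays stood at 12.997, 12.97 and 12.84 at P0, 12.30, 12.25 and 12.17 at 1 W, 10.66, 10.55 and 9.67 at 3 W and 9.37, 7.83 and 9.39 at 5 W. Within each fibre no array of one age overlapped with those of another. From P0 to 5 W Uhrf1 fell 13.2-fold in EN (log2 difference -3.73 ± 0.35 SE, adjusted p = 7.09e-08) and 16.8-fold in AN (-4.07 ± 0.35, adjusted p = 2.20e-08). The differences at 1 W, -0.34 in EN and -0.70 in AN, did not pass, although the AN difference did with the slide as a block (-0.90, adjusted p = 0.0260) and with array weights (-0.67, adjusted p = 0.0457). The step from 1 W to 3 W was -2.19 in EN and -1.94 in AN, and AN fell again by 1.43 from 3 W to 5 W (adjusted p = 0.0294). That last call was lost without array 1 (-1.25) or 2 (-1.30) of 3 W AN or array 2 of 5 W AN (-0.91), the lowest Uhrf1 array of that group. The second Uhrf1 probe was above background on 6 arrays and was not tested.

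Dnmt1, the maintenance methyltransferase, fell too, but by far less. On the 3 EN arrays it was at 9.54, 9.45 and 9.26 at P0 and at 8.56, 7.93 and 8.88 at 5 W, and on the AN arrays at 10.03, 9.93 and 9.85 at P0 and at 9.04, 8.30 and 9.20 at 5 W. The ages do not overlap in either fibre. The difference from P0 to 5 W was -0.96 ± 0.22 in EN (1.95-fold lower, adjusted p = 9.93e-04) and -1.09 ± 0.22 in AN (2.12-fold lower, adjusted p = 3.61e-04). At 3 W Dnmt1 had fallen in AN (-0.71, adjusted p = 0.0105), while the EN difference of -0.46 did not pass (adjusted p = 0.0819). With the slide as a block the 3 W differences were larger, -1.20 in EN and -1.45 in AN, and both passed. That fit ties 3 W to P0 only through array 3 of each 5 W group. Within each array, Uhrf1 fell relative to Dnmt1: the log2 ratio of the 2 genes, set to 0 at P0, was -2.76 ± 0.22 (SD, n = 3) in EN and -2.98 ± 0.43 in AN at 5 W.

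Dnmt3b and Dnmt3a, both de novo methyltransferases, went opposite ways on their brightest probes. Dnmt3b stood at 9.99, 9.69 and 9.47 in EN at P0 and at 8.94, 8.20 and 8.74 at 5 W. In AN it stood at 10.14, 9.80 and 9.86 at P0 and at 9.35, 8.80 and 9.24 at 5 W, again with no overlap of the ages. It fell by 1.09 in EN (2.13-fold, adjusted p = 2.60e-04) and by 0.81 in AN (1.75-fold, adjusted p = 0.00375), and its second tested probe fell too (-0.45 and -0.64). The fall had passed at 3 W in both fibres (-0.64 and -0.56). The EN call was lost without array 1 of P0 EN (-0.50). The AN call was lost without array 1 (-0.45) or 3 (-0.59) of P0 AN, and without array 3 of 3 W AN, where the value was -0.32 (adjusted p = 0.201).

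Dnmt3a rose early. In EN its arrays were at 11.92, 11.97 and 11.31 at P0, at 12.84, 12.87 and 12.70 at 1 W, at 12.82, 12.93 and 12.92 at 3 W and at 12.56, 11.89 and 12.13 at 5 W. In AN they were at 11.89, 12.16 and 11.32 at P0, 12.76, 12.77 and 12.47 at 1 W, 13.01, 13.08 and 12.55 at 3 W and 12.73, 12.27 and 12.54 at 5 W. All 1 W and 3 W arrays lay above the P0 arrays of the same fibre. Against P0 the difference was 1.07 in EN (2.10-fold, adjusted p = 0.00159) and 0.88 in AN (1.84-fold, adjusted p = 0.00792) at 1 W and 1.16 and 1.09 at 3 W. At 5 W it was 0.73 in AN (adjusted p = 0.0105) and 0.46 in EN (adjusted p = 0.0863). The AN calls at 1 W and 5 W were lost without array 3 of P0 AN, the lowest Dnmt3a array (0.65 and 0.49). A second Dnmt3a probe, at chr12:3908227-3908286 and above background on 24 arrays, went the other way: it differed from P0 by -0.42 in EN and -0.67 in AN at 3 W and by -0.44 and -1.07 at 5 W, and its AN values passed at both ages. The 2 further Dnmt3a probes were above background on 1 and 0 arrays. The direction given for Dnmt3a is therefore that of 1 probe.

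The Tet dioxygenases had smaller differences from P0 at 5 W than the other 6 genes in each fibre, on the brightest probes. Tet1 rose at 1 W, by 0.77 in EN (adjusted p = 0.00498) and by 0.59 in AN (adjusted p = 0.0305), was at the same distance at 3 W (0.76 and 0.59) and lay 0.30 in EN (adjusted p = 0.181) and 0.46 in AN (adjusted p = 0.0482) above P0 at 5 W. Its EN arrays lay at 9.53 to 9.86 at P0 and 10.34 to 10.69 at 1 W, and its AN arrays at 9.54 to 10.11 and then 10.36 to 10.41, so that the 2 ages were separate in each fibre. The AN calls of Tet1 were easily lost. That of 1 W was lost without array 1 (0.46) or 3 (0.56) of P0 AN or any array of 1 W AN (0.57 to 0.59), that of 3 W without array 1 of P0 AN (0.46) or of 3 W AN (0.43), and that of 5 W without any 1 of 17 of the 24 arrays (0.32 to 0.47). With the slide as a block the 3 W differences were 0.50 and 0.33 and did not pass. Of the other Tet1 probes, 1 passed at 1 W in EN (0.50), and the rest of their differences from P0 did not pass.

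Tet2 rose in EN at 1 W (0.66, 1.58-fold, adjusted p = 0.0337), where its arrays of 11.10 to 11.69 overlapped with the P0 arrays of 10.48 to 11.16, and the call was lost without array 2 (0.64) or 3 (0.50) of P0 EN or array 1 (0.55) or 2 (0.60) of 1 W EN. The AN difference of 0.54 at 1 W had an adjusted p of 0.0960 (it passed with the slide as a block, 0.38, with array weights, 0.64, and with the replicate block, 0.54, adjusted p = 0.0117), and the difference between the fibres in this change was -0.13 and did not pass. Neither of its other 2 probes passed against P0. Tet3, the dimmest of the 9 probes, was lower at 3 W, by -0.76 in EN (adjusted p = 0.00888) and -0.57 in AN (adjusted p = 0.0422), and at 5 W it was -0.36 and -0.19 from P0 with neither passing. Its 3 W arrays lay at 7.02 to 7.18 (EN) and 6.74 to 7.16 (AN). With the slide as a block the 3 W difference was -0.13 in EN and 0.06 in AN, and neither passed, and without a shared slide the 3 W age and its slide cannot be told apart. The EN call was lost without array 3 of P0 EN (-0.55) and the AN call without any 1 of 5 arrays of P0 AN and 3 W AN (-0.49 to -0.60). Its second probe fell in AN at 3 W (-0.55) and in both fibres at 5 W (-0.63 in EN and -0.56 in AN).

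Ezh1 and Ezh2, the alternative catalytic subunits of PRC2, crossed in direction. Ezh1 on the EN arrays was at 12.25, 12.30 and 11.89 at P0, 13.02, 12.98 and 12.80 at 1 W, 13.99, 14.07 and 13.98 at 3 W and 13.76, 14.23 and 13.80 at 5 W. On the AN arrays it was at 12.15, 12.36 and 11.87 at P0, 12.80, 12.84 and 12.52 at 1 W, 14.16, 14.25 and 14.08 at 3 W and 13.89, 14.50 and 14.17 at 5 W. The arrays of P0, 1 W and 3 W were separate in each fibre, and those of 3 W and 5 W overlapped. Ezh1 rose 3.43-fold in EN (1.78 ± 0.17, adjusted p = 7.66e-08) and 4.17-fold in AN (2.06 ± 0.17, adjusted p = 1.10e-08) from P0 to 5 W, and its 2 other probes rose by 1.20 to 1.83. At 1 W it had risen by 0.79 in EN and 0.59 in AN (adjusted p = 0.00220 and 0.0170), the AN call being lost without array 3 of P0 AN (0.47) or array 1 (0.55) or 2 (0.53) of 1 W AN, and neither other probe passed at 1 W. The rise was in place at 3 W: 5 W differed from 3 W by -0.09 in EN and 0.02 in AN.

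Ezh2 was at 10.51, 10.77 and 9.94 in EN at P0 and at 9.23, 8.93 and 9.31 at 5 W, and at 10.78, 11.07 and 10.36 in AN at P0 and at 9.70, 9.13 and 9.77 at 5 W. It fell 2.37-fold in EN (-1.25 ± 0.22, adjusted p = 1.11e-04) and 2.30-fold in AN (-1.20 ± 0.22, adjusted p = 1.76e-04), with no overlap. At 1 W it was not lower than at P0 (0.23 in EN and 0.18 in AN, neither passing), and from 1 W to 3 W it fell (-0.89 and -0.84). The 3 W fall against P0 passed in both fibres (-0.66 and -0.66) but not without array 2 of P0 in its fibre (-0.48 in EN and -0.50 in AN), nor without array 1 of P0 in EN (-0.60) or array 3 of 3 W in AN (-0.46). It was -1.02 in EN and -1.03 in AN, and passed in both, with the slide as a block. That fit ties 3 W to P0 only through array 3 of each 5 W group. Of the 4 other Ezh2 probes, 1 fell at 5 W (-1.38 in EN and -1.39 in AN), while the other 3 had differences of -0.71 to -0.90 that did not pass. Those 3 probes changed less up to 3 W. Their EN means at P0, 1 W and 3 W were 9.91, 9.81 and 10.03, then 9.88, 9.93 and 9.83, and 9.06, 8.89 and 8.81. In AN they were 10.17, 10.14 and 10.07, then 10.26, 10.16 and 9.96, and 9.52, 9.31 and 9.27. The fall by 3 W therefore rests on the brightest probe and 1 other, at 9.73, 9.74 and 8.88 in EN and 10.15, 10.10 and 9.32 in AN. Relative to Ezh2 on the same array, Ezh1 rose 8.15-fold in EN and 9.57-fold in AN from P0 to 5 W. The log2 ratio, set to 0 at P0, was 2.78, 3.55 and 2.75 on the EN arrays and 2.80, 3.98 and 3.00 on the AN arrays at 5 W, against -0.21 to 0.21 and -0.09 to 0.12 at P0.

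**Figure D2:**
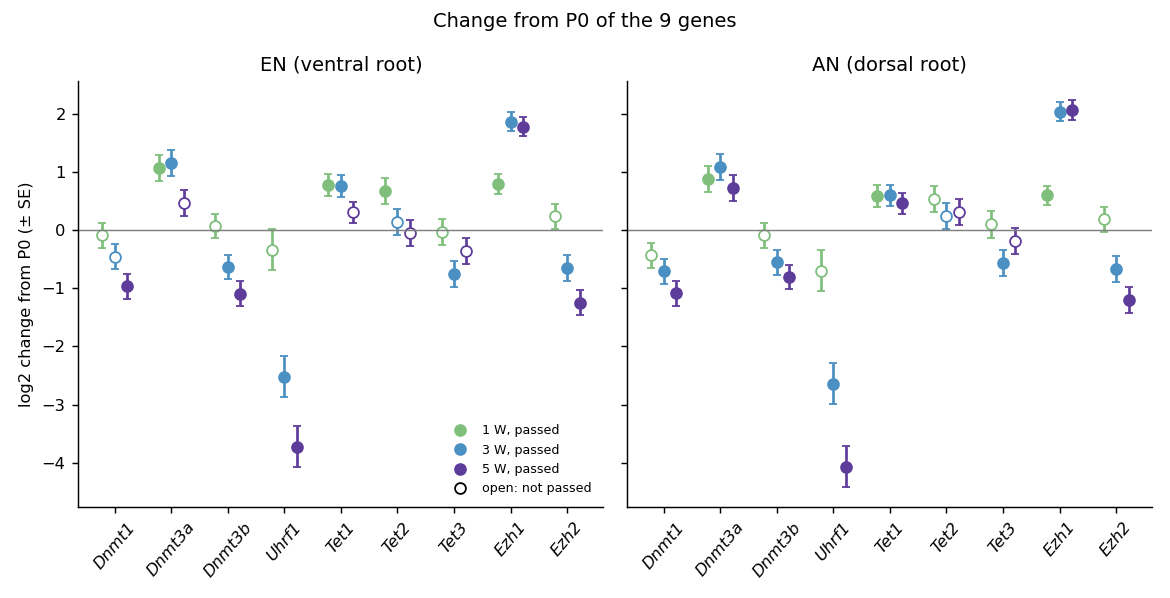
Log2 change from P0 (y, ± SE of the fit) of the 9 genes (x) at 1 W, 3 W and 5 W, in EN (left) and AN (right), with filled points where the adjusted p was below 0.05. Uhrf1 reaches -3.73 and -4.07 at 5 W, Ezh1 1.78 and 2.06, and no gene passed in opposite directions in the 2 fibres.

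Counted together, 4 of 9 genes rose from P0 to 1 W in EN (Dnmt3a, Tet1, Tet2 and Ezh1), against 15.5% of all tested probes, and 0 fell, against 11.6%. In AN 3 rose (Dnmt3a, Tet1 and Ezh1), against 12.3%, and 0 fell, against 9.35%. In AN 2 fell with the slide as a block, Dnmt1 (-0.58, adjusted p = 0.00371) and Uhrf1 (-0.90). The AN count was 0 without array 3 of P0 AN and 1 without array 1 or 2 of 1 W AN. At 3 W, 3 genes rose in EN and 4 fell, against 29% and 26.1% of all probes, and 3 rose and 5 fell in AN, against 26.8% and 24.9%. The AN falls were 2 without array 3 of 3 W AN and 3 without any 1 array of P0 AN, and the EN falls were 2 without array 1 of P0 EN. At 5 W, 1 rose and 4 fell in EN, against 28.2% and 26%, and 3 rose and 4 fell in AN, against 26.4% and 24.2%. The falls at 5 W were Uhrf1, Dnmt1, Dnmt3b and Ezh2 in both fibres, and no excess over the share of all probes was tested. At an unadjusted p below 0.05 and a fold change above 2, the thresholds given in the study's methods, the 5 W count was 4 in each fibre (Uhrf1, Ezh1 and Ezh2 in both, with Dnmt3b in EN and Dnmt1 in AN).

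Between neighbouring later ages, 5 genes passed from 1 W to 3 W in EN, against 27.5% of all probes, and 4 did in AN, against 29.9%. On the brightest probes, Uhrf1, Ezh2 and Tet3 were lower and Ezh1 higher in both fibres, and Dnmt3b was lower in EN. No slide held both ages, so that this step and the slide cannot be told apart. With the slide as a block the Tet3 differences were -0.07 in EN and -0.006 in AN, and neither passed. Dnmt1 was lower in that fit (-0.96 in EN and -0.87 in AN) and passed in both. Uhrf1, Ezh2 and Ezh1 passed in both fibres there, and Dnmt3b in EN. That fit ties 3 W to 1 W only through array 3 of each 5 W group, so that passing in it does not separate age from slide. The Dnmt3b call was lost without array 1 (-0.70) or 2 (-0.65) of 1 W EN or array 1 of 3 W EN (-0.69), and that of Tet3 without any 1 of 3 arrays in EN (-0.60 to -0.70) and 4 in AN (-0.56 to -0.71). The EN count was 3 without array 1 of either age. From 3 W to 5 W 0 genes passed in EN by limma, against 2.25% of all probes, with 6 of 9 at an unadjusted p below 0.05, and in AN 1 did (Uhrf1), against 3.68%. The EN count was 4 with array weights and 1 without array 2 of 5 W AN or array 3 of 5 W EN.

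The 5 W differences had the same direction on the slide that P0 and 5 W shared. On that slide, with arrays 2 and 3 of P0 and array 2 of 5 W, the difference from P0 to 5 W was -4.43 in EN and -5.07 in AN for Uhrf1, 2.13 and 2.39 for Ezh1, -1.42 and -1.58 for Ezh2, -1.43 and -1.59 for Dnmt1 and -1.38 and -1.03 for Dnmt3b. These values rest on 1 array of 5 W per fibre. In both fibres array 2 was the lowest of its 5 W group for Uhrf1, Dnmt1, Dnmt3b and Ezh2 and the highest for Ezh1. With that array of the same fibre left out, and no slide block, Uhrf1 differed by -3.34 in EN and -3.56 in AN. Ezh1 then differed by 1.63 and 1.90. With the slide as a block in all arrays, these 5 genes passed in both fibres at 5 W, with Uhrf1 at -4.22 and -4.56 and Ezh1 at 1.91 and 2.19. For Dnmt3a at 1 W, the slides with both ages gave EN differences of 0.92 and 1.06 and AN differences of 0.88 and 0.73. The age comparisons also go with the makeup of the root. The mean level of 8 Schwann cell markers was 15.89 in EN and 15.36 in AN at P0 and 16.96 and 17.08 at 5 W, that of 4 immature Schwann cell markers was 13.11 and 13.38 at P0 and 10.75 and 12.10 at 5 W, and that of 5 macrophage markers was 10.54 and 10.56 at P0 and 11.98 and 11.63 at 5 W. That of 8 sensory neuron markers was 11.67 in EN and 11.93 in AN at P0, 8.24 and 12.37 at 1 W and 8.17 and 9.60 at 5 W. The part of these markers in the age comparisons was not tested.

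**Figure D3:**
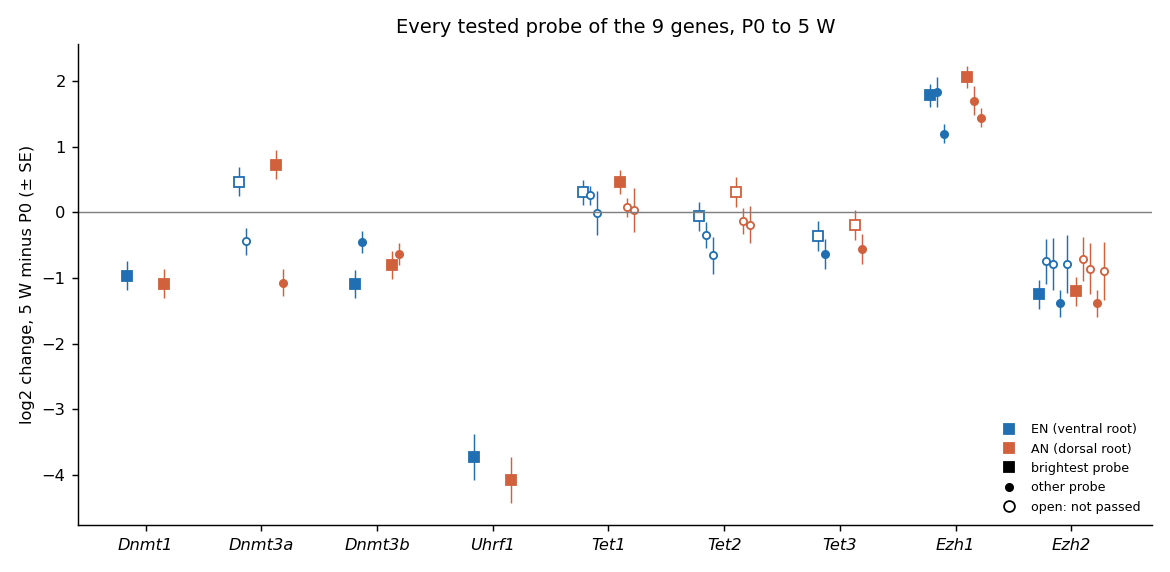
Log2 change from P0 to 5 W (y, ± SE of the fit) of every tested probe of the 9 genes (x) in EN (blue) and AN (orange), with squares for the brightest probe of a gene and filled symbols where the adjusted p was below 0.05. The probes of Ezh1 all rise and those of Dnmt3b all fall, while those of Dnmt3a lie on both sides of 0.

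Whether AN and EN differed depended on the fit. Without the pairing of arrays, in 0 of 9 genes did the difference pass at any age by limma, against 0.739% of all probes at birth, and 4.01%, 5.89% and 6.77% at the later ages in order. At an unadjusted p below 0.05 there was 1 gene at P0 (Dnmt1, 0.52 higher in AN) and 1 at 5 W (Dnmt3b, 0.50 higher in AN). The change of the difference since P0 passed for 0 genes at 1 W, 3 W and 5 W, against 0.0632%, 0.615% and 1.14% of all probes, and for 0 at an unadjusted p below 0.05.

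Same-numbered AN and EN arrays of an age deviated together from their group means (12 of 12 pairs, r from 0.107 to 0.647) and were taken as pairs. The study states no pairing, and each pair lay on 1 slide, so that shared samples and a shared slide cannot be told apart. At 3 W, where all arrays shared a slide, r was 0.107 to 0.213. Between ages of the same fibre, 15 of 36 same-numbered pairs had an r above 0.1. The fit with the AN and EN pairs as a block was read beside the first. In it 1 gene passed at P0, against 3.85% of all probes, 0 at 1 W, against 10.8%, 1 at 3 W, against 21.1%, and 5 at 5 W, against 23.5%. Dnmt1 was higher in AN by 0.48, 0.47 and 0.59 in the 3 pairs at P0 (0.52 ± 0.10 SE, adjusted p = 0.0221). Uhrf1 was higher in AN by 1.07 and 0.62 in pairs 1 and 2 at 3 W and differed by -0.03 in pair 3, the pair with the AN array high in sensory neuron markers (0.55 ± 0.17, adjusted p = 0.0458). At 5 W all 3 pairs were higher in AN for Dnmt1 (0.39, adjusted p = 0.0222), Dnmt3b (0.50, adjusted p = 0.0208), Tet2 (0.35, adjusted p = 0.0220), Ezh1 (0.26, adjusted p = 0.0256) and Ezh2 (0.38, adjusted p = 0.0387). The second tested Dnmt3b probe did not show this, with means of 7.97 in AN and 7.96 in EN at 5 W. Its AN and EN means were 8.61 and 8.42 at P0, 8.42 and 8.49 at 1 W and 7.85 and 7.98 at 3 W. The other tested probes of Tet2, Ezh1 and Ezh2 all had higher means in AN at 5 W. Over all ages, on the brightest probes, Dnmt1, Uhrf1 and Ezh2 were higher in AN in 11 of 12 pairs each and Dnmt3b in 10, while Tet3 was higher in AN in 1 of 12. Pairs of different ages are not replicates of each other, and no such tally was taken over all probes.

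Cell type markers differed between the fibres as well, also at 1 W, where no gene passed in the paired fit. The mean of 8 sensory neuron markers was 11.93 in AN and 11.67 in EN at P0, 12.37 and 8.24 at 1 W, 10.98 and 8.21 at 3 W and 9.60 and 8.17 at 5 W. At 5 W the AN arrays lay between 7.95 and 10.98 and the EN arrays between 7.99 and 8.43. Of these 8 markers 6 were above background on every array. The mean of 4 astrocyte markers, 3 of them above background on every array, was 11.68 in AN (10.91 to 12.41) and 9.64 in EN (9.396 to 10.02) at 5 W. Immature Schwann cell markers were higher in AN with no overlap of the arrays at any age, with means of 13.38 and 13.11 at P0, 13.37 and 12.53 at 1 W, 12.77 and 11.28 at 3 W and 12.10 and 10.75 at 5 W. The mean of 18 cell cycle genes was 12.05 in AN and 11.44 in EN at P0, 11.17 and 10.83 at 1 W, 9.57 and 9.13 at 3 W and 8.58 and 8.42 at 5 W. Some markers were higher in EN at 5 W. Means in AN and EN were 14.98 and 15.47 for fibroblasts and meningeal cells, with no overlap of the arrays. They were 11.63 and 11.98 for macrophages and 10.275 and 10.63 for endothelial cells, with overlap. The part of these markers in the differences of the methyltransferases and Ezh2 was not tested.

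**Figure D4:**
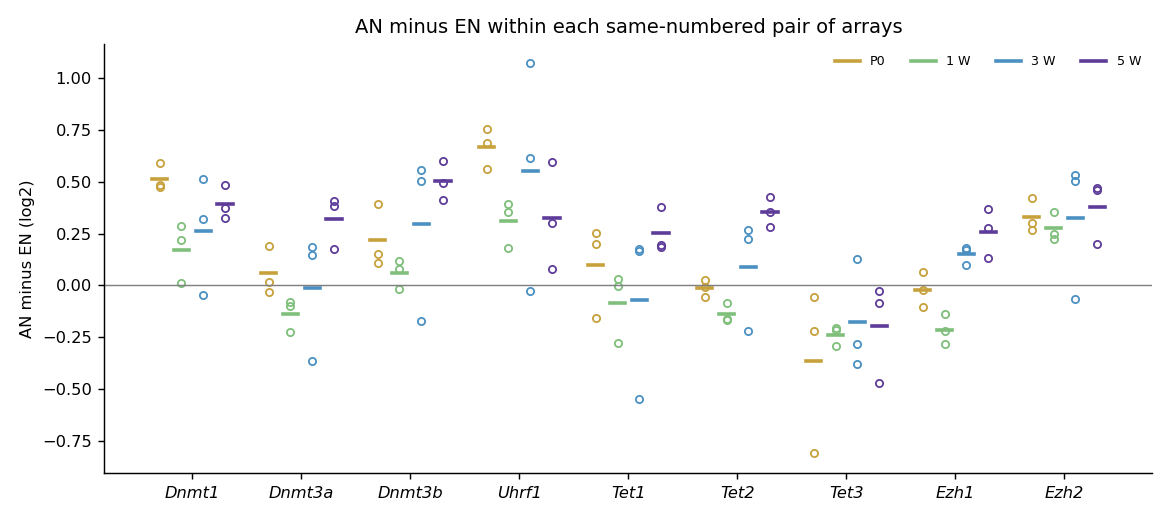
AN minus EN (log2, y) within each same-numbered pair of arrays (open circles) of the 9 genes (x), coloured by age, with bars at the mean of 3 pairs. Most pairs of Dnmt1, Uhrf1 and Ezh2 lie above 0 and those of Tet3 below, and pair 3 at 3 W lies lower than the other 2 in all 9 genes.

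Ranked over the 8 groups, Uhrf1 and Dnmt1 were highest in P0 AN and lowest in 5 W EN. Uhrf1 in P0 AN (12.94 ± 0.08 SD, n = 3) did not overlap with the next group, P0 EN (12.27 ± 0.17), whereas P0 EN overlapped with 1 W AN (12.24 ± 0.07). Neighbours in the order of Dnmt1 overlapped except P0 AN (9.93 ± 0.09) and 1 W AN (9.50 ± 0.03). Dnmt3b was highest in P0 AN and lowest in 5 W EN as well (8.62 ± 0.38), and only that last group was separate from its neighbour. Ezh2 had its highest mean in 1 W AN (10.92 ± 0.08) and its lowest in 5 W EN (9.16 ± 0.20), with every neighbour overlapping. Ezh1 ran the other way, from 12.13 ± 0.25 in P0 AN to 14.19 ± 0.31 in 5 W AN. Dnmt3a was highest in 3 W EN, Tet1 and Tet2 in 1 W EN and Tet3 in P0 EN, and in these 4 genes every neighbour in the order overlapped.

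The genes most like each enzyme over the 24 arrays were ranked by Pearson's r among 23854 others, as a description of arrays that share age, slide and animals. Most like Uhrf1 were Cdca5 (0.994), a cohesin regulator of dividing cells, Hist1h2an (0.989), a replication-dependent histone, and BC055324 (0.989). Those of Ezh2 were Eme1 (0.963), a subunit of a DNA repair nuclease, Itga4 (0.960) and Hist2h2bb (0.949), another histone gene. Dnmt1 went with Nup155 (0.950), a nuclear pore protein, Prex1 (0.945) and an unnamed intergenic transcript (0.942), and Dnmt3b with Ddx39b (0.956), Fam19a5 (0.955) and Ctcf (0.949), the chromatin insulator. The first gene for Ezh1 was Cbx7 (0.989), a reader of the Polycomb mark, before Sesn1 (0.982) and Ccpg1 (0.982). Dnmt3a was most like Pot1a (0.960), a telomere protein, an unnamed intergenic transcript (0.937) and Oxct1 (0.936). The values were lower for Tet1 (Zfp213, Zfp62 and Bbs12, 0.864 to 0.856), Tet2 (Fam135a, Mical1 and an unnamed intergenic transcript, 0.917 to 0.899) and Tet3 (2 transcripts without a gene symbol and Wnt1, 0.909 to 0.890). Among the 9 themselves, Uhrf1 and Ezh2 had r = 0.930, Dnmt3b and Uhrf1 0.920, Uhrf1 and Ezh1 -0.894, and Ezh1 and Ezh2 -0.720.

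The partners of these enzymes were read from 6 lists, beside 28.2% of all probes that rose and 26% that fell from P0 to 5 W in EN, and 26.4% and 24.2% in AN. Among PRC2 core and accessory subunits, 2 of 10 rose and 5 fell from P0 to 5 W in EN, and 2 rose and 3 fell in AN, with medians of -0.30 and -0.15 beside 0.04 and 0.03 over all tested probes. All but the EN falls lie near or below the shares of all probes, and the EN count of 7 was 4 without array 2 of 5 W EN. Suz12, a core subunit that the complex needs for activity, fell (-0.78 in EN and -0.71 in AN, adjusted p = 5.81e-06 and 1.69e-05), and so did Rbbp7, a histone-binding subunit (-0.40 and -0.64). Epop, an accessory subunit, fell as well (-1.71 and -1.63). The accessory subunits Phf1 (0.60 and 0.84) and Mtf2 (0.59 and 0.81) rose. Eed, the core subunit that binds the methyl mark, was named after its values were seen: it differed by 0.01 and -0.07 and did not pass.

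Among PRC1 subunits, 7 of 21 rose and 3 fell in EN and 7 rose and 4 fell in AN, with medians of -0.04 and 0.11. The rises lie near the share of all probes and the falls below it. Cbx7 was at 7.13 ± 0.22 (SD, n = 3) in EN and 7.20 ± 0.10 in AN at P0, at 8.65 ± 0.26 and 8.32 ± 0.33 at 1 W, at 10.42 ± 0.11 and 10.99 ± 0.19 at 3 W and at 10.64 ± 0.50 and 11.33 ± 0.64 at 5 W. It rose 11.4-fold in EN (adjusted p = 4.68e-09) and 17.6-fold in AN (adjusted p = 5.62e-10). The related readers Cbx6 (1.3 and 1.41) and Cbx8 (0.88 and 1.36) rose as well. Bcor (-1.45 and -0.89) and Kdm2b (-1.05 and -0.80), subunits of a variant PRC1, fell, as did the ubiquitin ligase Rnf2 (-0.60 and -0.72). Bcor was the subunit that also differed between the fibres at 2 ages, higher in AN by 0.72 at 3 W (adjusted p = 0.00767) and 0.86 at 5 W (adjusted p = 0.00142), with no overlap of the arrays at either age.

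Of 6 H3K27 demethylase and H2A deubiquitinase genes, 1 rose and 3 fell in EN and 1 rose and 2 fell in AN, with medians of -0.36 and -0.15, too few genes to set against the shares of all probes. Asxl1 rose (0.57 and 0.80), Asxl3 fell (-1.52 and -0.91), and Bap1, the deubiquitinase that Asxl proteins activate, fell slightly (-0.30 and -0.26). Of 11 cofactors of DNA methylation and base excision genes, 2 rose and 3 fell in EN and 3 rose and 3 fell in AN, with medians of 0.22 and 0.15, close to the shares of all probes. Hells, the remodeller that aids DNA methylation, fell (-1.76 and -1.63), as did the glycosylase Tdg, which removes Tet products (-0.99 and -0.72), and Usp7, which stabilizes Dnmt1 and Uhrf1 (-0.73 and -0.60). Gadd45b (1.43 and 1.26) and Smug1 (0.33 and 0.30) rose. Mbd4, another glycosylase of this list, was higher in AN at 3 W (0.77, adjusted p = 0.00727) and 5 W (0.60, adjusted p = 0.0268).

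Of 7 methyl-CpG binding proteins, 4 rose in EN and 5 in AN and 0 fell in either, with medians of 0.75 and 0.72, against 28.2% and 26.4% of all probes that rose and 26% and 24.2% that fell. Zbtb38 (1.97 and 1.95), Zbtb4 (1.44 and 2.01) and Mbd1 (0.75 and 1.51) rose the most, and Mbd1 had first fallen at 1 W, with -0.83 in EN and -1.1 in AN. Of 18 cell cycle genes, 0 rose in either fibre, and 18 fell in EN and 17 in AN, with medians of -3.39 and -3.95, against 26% and 24.2% of all probes. Mki67, the proliferation marker, fell (-3.64 and -4.15), as did the topoisomerase Top2a (-4.07 and -4.49) and Pcna, the replication clamp (-0.77 and -1.16). Ccnb1 (-4.65 and -4.96), Bub1 (-4.34 and -5.00) and Ccna2 (-4.18 and -4.83), mitotic genes, fell the most, and Bub1 was above background on 1 of 3 arrays of each 5 W group, so that its size is uncertain there. Against Mki67 alone, the log2 ratio of Uhrf1 on the same array, set to 0 at P0, was 0.45, -0.87 and 0.17 in EN and 0.43, -0.99 and 0.82 in AN at 5 W, so that the arrays lay on both sides of 0.

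**Figure D5:**
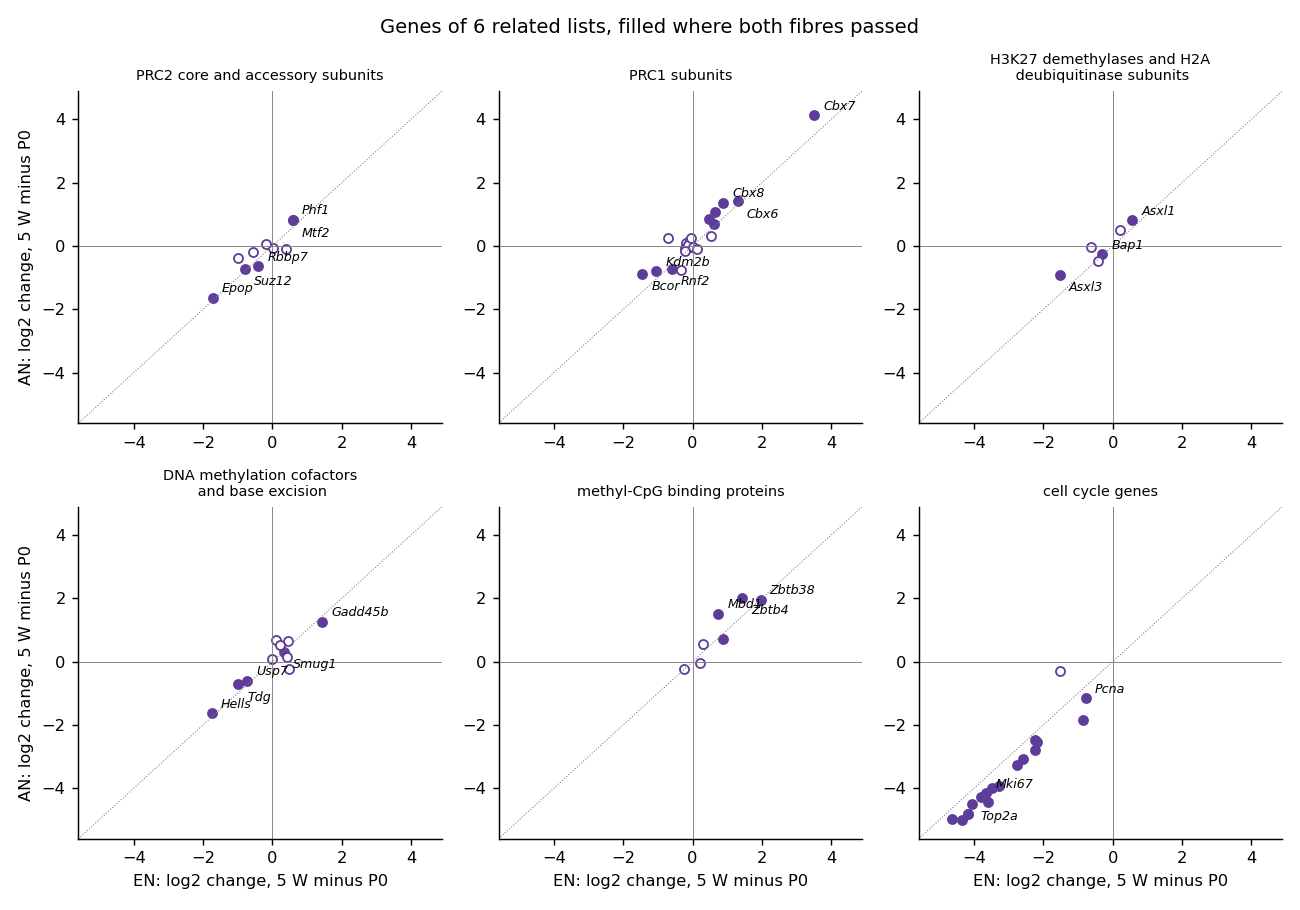
Log2 change from P0 to 5 W in AN (y) against EN (x) for the genes of 6 lists related to the enzymes, filled where both fibres passed, with the dotted line of equal change. Cbx7 stands at 3.52 and 4.13 and the cell cycle genes lie at the lower left, with Top2a at -4.07 and -4.49.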

How the data were processed

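RNA levels were read with 24 one-colour Agilent arrays (SurePrint G3, mouse). The authors deposited 2 kinds of values: fluorescence intensity of each spot, with flags, from Agilent Feature Extraction 10.7.1.1, and 1 table of log2 values that their methods describe as quantile normalized. Groups were taken from the labels. The deposited log2 values of gene probes well above background on 3 arrays of at least 1 group (36398 of 56605) were fitted with limma 3.58.1 in R 4.3.3, 8 groups in 1 fit with 16 residual degrees of freedom, and p values were adjusted by the method of Benjamini and Hochberg. The number of arrays limits the precision. Both the 9 genes and the lists were chosen with earlier results of these data known. Named are the 9 genes, the 3 largest rises and falls of each list among genes passing in both fibres, list genes differing between fibres at 2 or more ages, Mki67, Top2a and Pcna, and the 3 genes most like each enzyme. On simulated shifts of 2 log2 units in 200 of the 36398 probes (EN 5 W against P0), 86% were recovered, and 5.49% of calls were false. The simulated noise was independent between arrays and few probes changed. These rates therefore check the code and do not describe the real arrays, which share slides and differ in many probes. Same-numbered AN and EN arrays of an age were taken as pairs because all 12 pairs had a correlation above 0.1. Each pair lay on the same slide, and the study states no pairing. Alternatives were scanner signal with quantile, 75th percentile or normexp (offset 50) normalization, other filters, blocks for replicate or slide, array weights, single arrays left out, other probes and the methods' thresholds. The block of pairs within an age, and leaving out a replicate number from every group, were chosen after seeing the data. Promoter windows are from RefSeq (GRCm38.p6). Figures were drawn in Python 3.11.15 with matplotlib 3.10.9.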

Additional observations from a re-analysis of the deposited data

How the results depend on the processing

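The falls of Uhrf1, Dnmt1, Dnmt3b and Ezh2 and the rise of Ezh1 at 5 W passed in both fibres without any single array. Of 44 calls of the 9 genes, 27 held without every single array in turn. Scanner signal with quantile, 75th percentile or normexp normalization, and other filters, moved no count of genes by more than 1.5 times. Counts did move elsewhere, and the cause was not tested. With the slide as a block, 1 gene passed between fibres at P0 and 2 at 5 W (0 without it), 6 in AN from P0 to 1 W, 4 higher and 2 lower (3) and 0 in AN from 3 W to 5 W (1). Between fibres at 5 W that fit called 5356 of the 36398 tested probes, against 2464 without the block. Most other counts under alternatives, here and above, have no share of all probes beside them and are not read as an excess. With the replicate block within age, 1 passed between fibres at P0, 1 at 3 W and 5 at 5 W (0). The replicate block over all ages let Dnmt3a pass in EN at 5 W (0.46) and Tet2 pass in AN at 1 W (0.54) and in EN from 1 W to 3 W (-0.53), and lost Tet1 in AN at 5 W (adjusted p = 0.0538). With array weights, 4 passed between fibres at 3 W (0), 5 in AN at 1 W (3), 4 in EN from 3 W to 5 W (0) and 2 in AN from 3 W to 5 W (1). At an unadjusted p below 0.05 and a fold change above 2, the count was 1 in EN at 1 W (4), 3 in EN at 3 W (7), 0 in AN at 1 W (3), 3 in AN at 3 W (8), 4 in AN at 5 W (7), 2 in EN and 2 in AN from 1 W to 3 W (5 and 4) and 1 in EN from 3 W to 5 W (0). In the lists at 5 W it was, in EN and AN, 1 and 1 for PRC2, 4 and 4 for PRC1, 1 and 0 for the demethylases and deubiquitinase, 2 and 2 for the cofactors and 2 and 3 for the methyl-CpG binding proteins. With the second-brightest probe, 1 passed in EN and 0 in AN at 1 W, 3 in EN at 3 W and 3 in EN from 1 W to 3 W. Dnmt1 and Uhrf1, which had no second tested probe, entered these counts through the brightest probe. With only the groups compared, 5 passed in AN at 3 W and 0 in AN from 3 W to 5 W, and 3 of PRC2 and 2 of the demethylases in EN and 3 of the methyl-CpG binding proteins in AN at 5 W. That setting called 16760 of all tested probes in EN from P0 to 5 W, against 19714 with all groups in the fit. Between fibres at 5 W it called 35, against 2464.

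Signs turned on other probes: Dnmt3a to -0.29 and -0.42 in EN at 1 W and 3 W and to -0.25, -0.67 and -1.07 in AN at 1 W, 3 W and 5 W, Tet1 to -0.056 in AN at 1 W, Tet2 to -0.52 in EN at 1 W, and Ezh2 to 0.12 in EN at 3 W and 0.22 from 1 W. Tet3 in AN at 3 W turned to 0.058 with the slide as a block. Leaving out 1 array, or 1 replicate number from every group, gave 1 to 4 genes in EN at 1 W, 5 to 8 at 3 W and 5 to 6 at 5 W, and 0 to 3, 3 to 8 and 5 to 7 in AN. From 1 W to 3 W it gave 2 to 6 in EN and 2 to 4 in AN, and from 3 W to 5 W 0 to 1 and 0 to 2. Between fibres, and for the change of that difference, it gave 0 to 0. In the lists (EN, then AN) it gave 4 to 7 and 5 to 5 for PRC2, 5 to 11 and 8 to 12 for PRC1, 2 to 4 and 2 to 4 for the demethylases, 4 to 6 and 5 to 8 for the cofactors, 3 to 6 and 4 to 5 for the methyl-CpG binding proteins, and 17 to 18 and 17 to 17 for the cell cycle. The number of arrays, 3 per group, limits what could be detected.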
